A study of Homo sapiens with 12 samples.

Results

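The genes described here encode cell adhesion proteins of the cadherin, protocadherin and immunoglobulin families, with the contactin-associated proteins, neurexins and neuroligins that bind alongside them. The rule for choosing them uses gene symbols alone, and it found 72 of the 14884 genes measured. It was set with earlier results of these data known, so the choice was not blind to them. Each gene was represented by its transcript cluster (the probes that the array assigns to 1 transcribed locus) with the highest mean signal over all 12 arrays. The members fall into 8 families: 19 protocadherins of the beta cluster (PCDHB), 13 protocadherins outside the clusters, 12 contactins and contactin-associated proteins, 10 nectins, CADMs, ALCAM and DSCAMs, 6 L1-family proteins and NCAMs, 5 giant cadherins (FAT and DCHS), 5 neurexins and neuroligins, and 2 other cadherins (CDH23 and CDH26). 69 members are protein-coding and 3 are pseudogenes of the beta cluster. CDH1, CDH2, CDH11 and the alpha and gamma protocadherins were not analysed here.

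SK-N-BE(2), an established neuroblastoma line with amplified MYCN, was cultured for 6 h under 4 conditions with 3 arrays each. The combination group received 1 µM JQ1 together with 10 nM panobinostat, the panobinostat group 10 nM panobinostat, the JQ1 group 1 µM JQ1, and the vehicle group neither compound. JQ1 displaces BET bromodomain proteins from acetylated chromatin, and panobinostat inhibits histone deacetylases. All 4 groups carry the same MYCN amplification and come from 1 cell line, and the labels do not say whether the arrays of a group came from separate cultures, so the p-values reflect variation among these arrays alone, and that variation may be technical.

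Cadherins bind one another across the gap between neighbouring cells through calcium-dependent extracellular repeats, and the classical members are tied to actin by catenins. Different neurons switch on different sets of clustered protocadherin promoters, through looping of the promoters to distant enhancers by CTCF and cohesin. The combinations of these proteins give each neuron a surface identity. Ig-family adhesion proteins such as NCAM1, L1CAM and the contactins guide axons and bundle neurites, and neuroblastoma cells, which derive from the sympathetic lineage, carry several of them.

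Values are log2 signal intensities as deposited, taken as log2 because they run from 1.391 to 14.1 (the labels name no log base), and each change is a difference of log2 values from limma (± SE, n = 3 in each group). A gene was called when limma's p, adjusted by the Benjamini-Hochberg method over 14884 genes, was under 0.05. Over all genes, arrays of 1 group correlated at 0.9906 to 0.9952 and arrays of different groups at 0.9617 to 0.9887. The values carry no detection call, so signal over background is unknown, and 29 members lay above the median gene's mean signal of 7.238 and 43 below it. Of 10 sympathetic neuroblast markers 9 were measured, with 73.2% (CHGB) to 99.9% (STMN2) of all genes below them in mean signal. Of the 5 mesenchymal markers measured, LUM, VIM and FN1 were also bright, with 98.9%, 91.4% and 80.1% of genes below them, and PRRX1 and DCN had 40.4% and 25.1% below them. The 3 Schwann markers measured, SOX10, S100B and ERBB3, had 53.8%, 23.9% and 23.4% of genes below them. The lymphoid and myeloid markers CD14 and CD68 had 30.1% and 67.3% below them, and the epithelial markers EPCAM, KRT8, KRT18 and KRT19 had 41.2% to 70.8%.

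Since the beta cluster gave the most called members, its promoters are shown first. RefSeq promoter sequence (GRCh38.p14, 250 bases before to 50 bases after the start) was at hand for 57 of the 72 members, 14 of them in the beta cluster on chromosome 5. A script looked for the 9-base run shared by most beta promoters and found GGTGGCGCT, in capitals below, in 13 of 14 (all but PCDHB1). On either strand it was in 0 of 63 promoters of 43 other members and in 0.501% of all 35116 promoters. The run was picked as the most frequent one in these 14 beta promoters, so its share among them is not independent of that choice. It began 2 to 84 bases before the start. The windows below, all on the plus strand and upstream of the start, come from 5 genes that were lower with the combination (PCDHB4, PCDHB16, PCDHB13, PCDHB14 and PCDHB15) and 2 that were called with no treatment (PCDHB2 and PCDHB3).
PCDHB4: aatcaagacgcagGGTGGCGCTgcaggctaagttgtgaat
PCDHB16: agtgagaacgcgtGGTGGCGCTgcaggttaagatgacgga
PCDHB13: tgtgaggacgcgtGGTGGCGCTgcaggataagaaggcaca
PCDHB14: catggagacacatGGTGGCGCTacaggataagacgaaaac
PCDHB15: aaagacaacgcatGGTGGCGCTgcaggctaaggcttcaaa
PCDHB2: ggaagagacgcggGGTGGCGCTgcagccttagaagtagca
PCDHB3: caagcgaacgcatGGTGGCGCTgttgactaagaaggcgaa

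These windows lie at chr5:141121721-141121760 (PCDHB4), chr5:141182308-141182347 (PCDHB16), chr5:141213863-141213902 (PCDHB13), chr5:141223261-141223300 (PCDHB14), chr5:141245312-141245351 (PCDHB15), chr5:141094542-141094581 (PCDHB2) and chr5:141100391-141100430 (PCDHB3). The run was present in promoters of called and of uncalled genes alike, and a match is a stretch of letters, not a binding site. The E-box CACGTG, the motif that MYCN and its partner MAX bind, was found in 0 of 14 beta promoters, 1 of 63 promoters of other members and 7.26% of all promoters. The letters TATAAA were found in 1 of 14 beta promoters, 7.94% of the promoters of other members and 11.5% of all promoters. Beta promoters had a median GC content of 40.8%, within 33.3% to 46.3%, against a median of 58.7% over all promoters, and a median of 7.5 CpG pairs, against 14.

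Of the 72 members, 39 were called with at least 1 treatment against vehicle, where 44.9% of all genes were, and 33 with none. With the combination 33 members (45.8%) were called, against 37.7% of all genes. With panobinostat 30 members (41.7%) were called, against 29.3% of all genes, and with JQ1 22 members (30.6%), against 17.6%. In the combination 12 members rose and 21 fell, with backgrounds of 18.2% and 19.5% of all genes in those directions. With panobinostat 14 rose and 16 fell (14.5% and 14.8% of all genes), and with JQ1 8 rose and 14 fell (8.18% and 9.47%). The median change over the members was -0.01 for the combination, 0.08 for panobinostat and -0.04 for JQ1, beside 0.02, 0.03 and 0.01 over all genes. 11 members were lower with all 3 treatments, 8 of them beta protocadherins, and 5 were higher with all 3, beside 5.79% and 4.27% of all genes. These 3 comparisons share the vehicle arrays. All treated arrays lay on one side of all vehicle arrays for 32 of the 33 called with the combination (CNTNAP2 overlapped), 27 of the 30 called with panobinostat (PCDH7, PCDH19 and PCDHB12 overlapped) and 22 of the 22 called with JQ1. Such separation was usual for a called gene, at 97.8%, 97.7% and 99.9% of all genes called with the combination, panobinostat and JQ1.

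**Figure D1:**
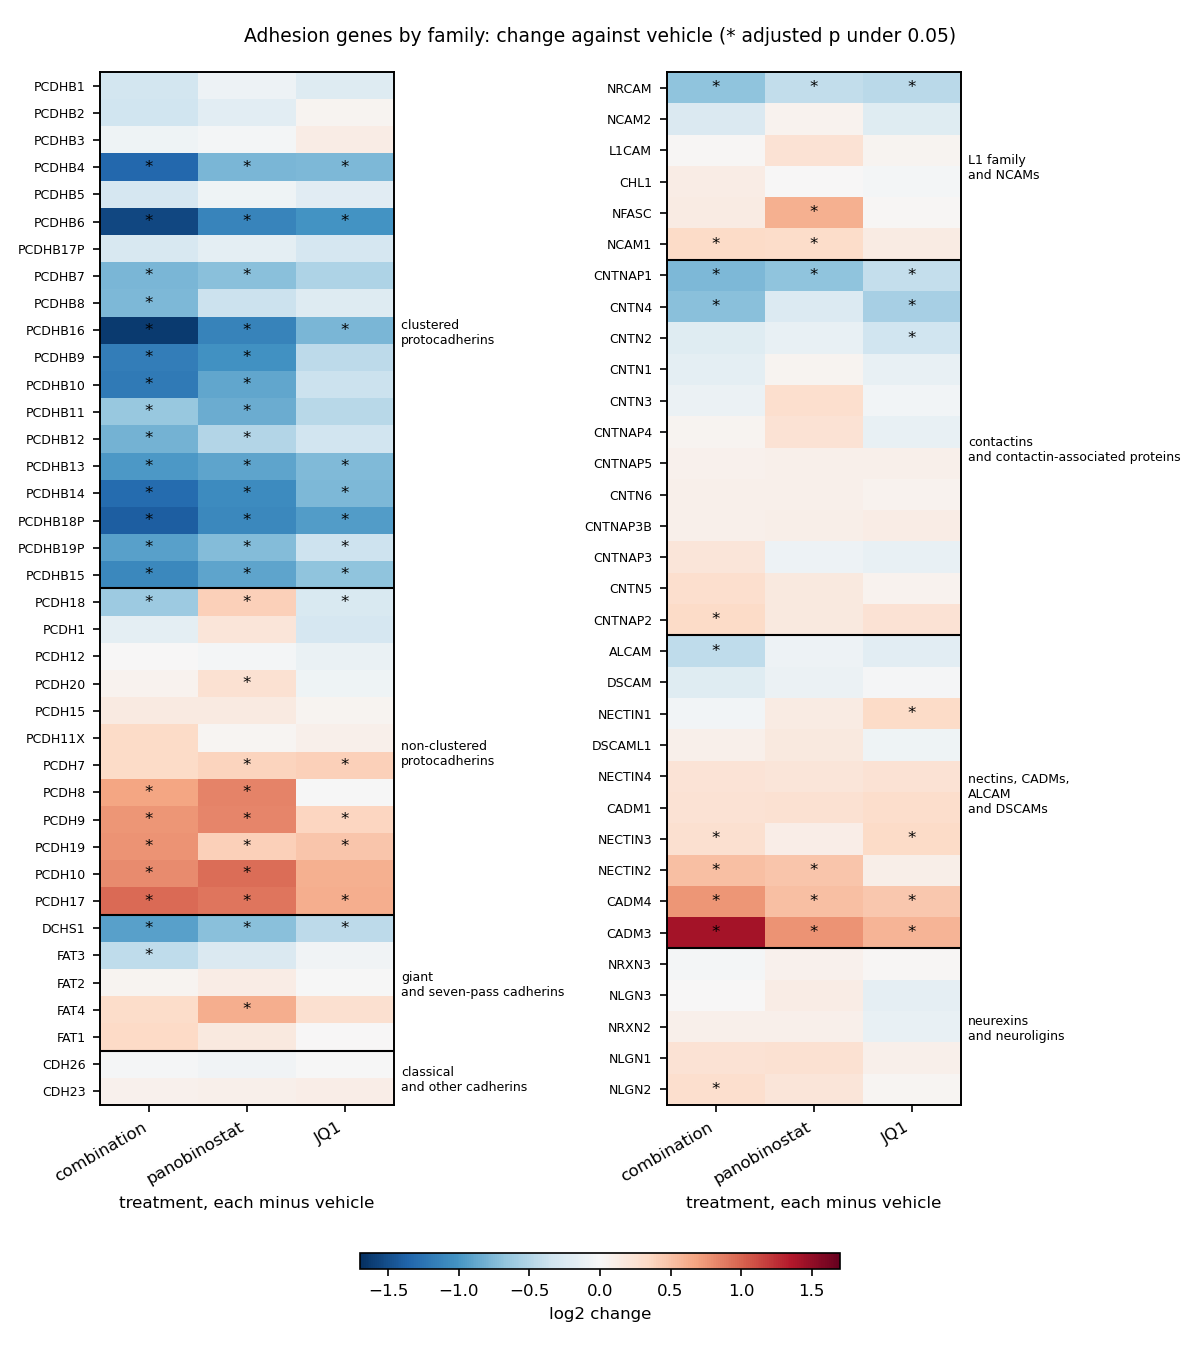
Each row is a member and each column a treatment, and the colour gives the log2 change against vehicle (blue lower, red higher, asterisk for limma's adjusted p under 0.05). The members other than PCDH11Y are drawn by family, and 14 of the 19 beta protocadherins carry an asterisk in the combination column, all lower.

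The protocadherins of the beta cluster are single-exon genes arranged one after another, each with its own promoter, and the proteins bind identical partners on apposed membranes. Of 19 measured, 14 fell with the combination, 13 with panobinostat and 8 with JQ1, and none rose. Beside these, 19.5%, 14.8% and 9.47% of all genes fell, in the same order. Their median log2 change was -0.92 with the combination, -0.78 with panobinostat and -0.45 with JQ1. All 19 had values below 0 with the combination and with panobinostat, and 17 with JQ1. Of the 19, 8 were called at least 2-fold lower with the combination, 5 with panobinostat and 1 with JQ1, beside 3.12%, 1.18% and 0.497% of all genes. Beta genes are near-identical copies over long stretches, so probes may read more than 1 of them and the 19 values are not independent. In these bulk samples fewer cells with a transcript and less transcript per cell cannot be told apart.

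PCDHB16 (transcript cluster 16990288) had the largest fall with the combination. Its log2 signal was 7.63, 7.89 and 7.89 on the combination arrays, 8.16, 8.49 and 8.23 with panobinostat, 8.70, 8.75 and 8.51 with JQ1, and 9.60, 9.43 and 9.27 with vehicle. No array of any treatment overlapped the vehicle arrays, and the combination arrays lay lowest. The log2 change was -1.63 ± 0.12 with the combination (3.09-fold lower, limma adjusted p = 8.08e-07), -1.14 ± 0.12 with panobinostat (3.37e-05) and -0.78 ± 0.12 with JQ1 (0.000862).

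PCDHB6 (transcript cluster 16990271) was the one member more than 2-fold lower with JQ1. It read 6.95, 7.44 and 7.24 with the combination, 7.43, 7.64 and 7.85 with panobinostat, 7.72, 7.82 and 7.66 with JQ1, and 9.10, 8.68 and 8.50 with vehicle. All 9 treated arrays lay below all vehicle arrays, whereas panobinostat and combination arrays overlapped. Its log2 changes were -1.55 ± 0.16 with the combination (2.93-fold lower), -1.12 ± 0.16 with panobinostat and -1.02 ± 0.16 with JQ1 (limma adjusted p = 1.26e-05, 0.000311 and 0.00113).

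PCDHB4 (transcript cluster 16990264), among the brightest beta genes, read 7.95, 8.31 and 8.23 with the combination, 8.57, 8.80 and 8.77 with panobinostat, 8.86, 8.77 and 8.56 with JQ1, and 9.79, 9.47 and 9.23 with vehicle. Panobinostat and JQ1 arrays overlapped each other and lay between the combination and vehicle arrays. The log2 change was -1.33 ± 0.14 with the combination (limma adjusted p = 1.6e-05), -0.78 ± 0.14 with panobinostat (0.00149) and -0.77 ± 0.14 with JQ1 (0.00322).

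PCDHB18P, a pseudogene of the cluster, read 7.90, 8.11 and 8.17 with the combination, 8.14, 8.55 and 8.41 with panobinostat, 8.54, 8.65 and 8.36 with JQ1, and 9.72, 9.40 and 9.26 with vehicle. Every treated array was below every vehicle array. Its log2 changes were -1.40 ± 0.14, -1.10 ± 0.14 and -0.95 ± 0.14 with the combination, panobinostat and JQ1 (limma adjusted p = 7.91e-06, 0.000124 and 0.00066). PCDHB14 fell by 1.31 on the log2 scale with the combination, by 1.07 with panobinostat and by 0.76 with JQ1, and its JQ1 call was lost without JQ1 replicate 3 (adjusted p 0.0512, range over all alternatives 0.00501 to 0.0512).

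PCDHB13 and PCDHB15 were also lower with all 3 treatments. PCDHB13, one of the dimmest members, changed by -0.97 ± 0.17 with the combination, -0.90 ± 0.17 with panobinostat and -0.75 ± 0.17 with JQ1. PCDHB15 changed by -1.09 ± 0.15, -0.90 ± 0.15 and -0.68 ± 0.15 in the same order. The pseudogene PCDHB19P changed by -0.92 ± 0.10, -0.74 ± 0.10 and -0.35 ± 0.10. Its JQ1 call was lost under 10 of 18 alternatives (adjusted p 0.0171 to 0.126), among them without vehicle replicate 1 or 2, any JQ1 replicate, panobinostat replicate 2 or combination replicate 3.

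PCDHB7, PCDHB9, PCDHB10, PCDHB11 and PCDHB12 were lower with the combination and panobinostat and were not called with JQ1. The difference between panobinostat and JQ1 was not tested. PCDHB10 read 6.85, 7.19 and 7.33 with the combination, 7.51, 7.48 and 7.36 with panobinostat, 7.85, 8.17 and 7.88 with JQ1, and 8.56, 8.36 and 8.06 with vehicle. Its JQ1 arrays overlapped the vehicle arrays, and its changes were -1.20 ± 0.15 with the combination, -0.88 ± 0.15 with panobinostat and -0.36 ± 0.15 with JQ1. PCDHB9 changed by -1.17 ± 0.19, -1.03 ± 0.19 and -0.45 ± 0.19, and PCDHB11 by -0.65 ± 0.16, -0.84 ± 0.16 and -0.47 ± 0.16. PCDHB12 changed by -0.80 ± 0.17, -0.50 ± 0.17 and -0.33 ± 0.17, and PCDHB7 by -0.78 ± 0.23, -0.71 ± 0.23 and -0.53 ± 0.23. The panobinostat call of PCDHB12 was lost under 8 of 17 alternatives (adjusted p 0.0187 to 0.158), including without vehicle replicate 1 or 2, JQ1 replicate 2 or 3, panobinostat replicate 1 or 3, or combination replicate 1. PCDHB7 lost its combination call without vehicle replicate 2 or combination replicate 2 or 3 (0.00596 to 0.0763 over all alternatives), and its panobinostat call without vehicle replicate 2 or 3 or panobinostat replicate 2 or 3 (0.0114 to 0.138).

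PCDHB8, a dim member with mean log2 signals of 3.59 with the combination and 4.36 with vehicle, was called with the combination and with neither compound by itself (-0.77 ± 0.25, limma adjusted p = 0.0301), and the call was lost without vehicle replicate 1 or 2 or combination replicate 2 or 3 (0.00572 to 0.107). The 5 members called with no treatment were PCDHB1, PCDHB2, PCDHB3, PCDHB5 and PCDHB17P, with mean log2 signals of 4.43 to 6.11 with the combination and 4.70 to 6.45 with vehicle. PCDHB2, PCDHB3 and PCDHB5 changed by -0.34, -0.07 and -0.28 with the combination, and PCDHB1, the first gene of the cluster, by -0.31. Among the 14 beta promoters searched, only that of PCDHB1 had no exact copy of the shared run. For 5 beta genes no promoter sequence was at hand. Over all arrays the uncalled genes averaged 4.52 (PCDHB17P), 5.10 (PCDHB1), 5.21 (PCDHB5), 5.43 (PCDHB3) and 6.33 (PCDHB2). The 14 called beta genes averaged from 4.02 (PCDHB8) and 4.17 (PCDHB13) up to 8.78 (PCDHB4). The part of signal level in which beta genes were called was not tested.

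**Figure D2:**
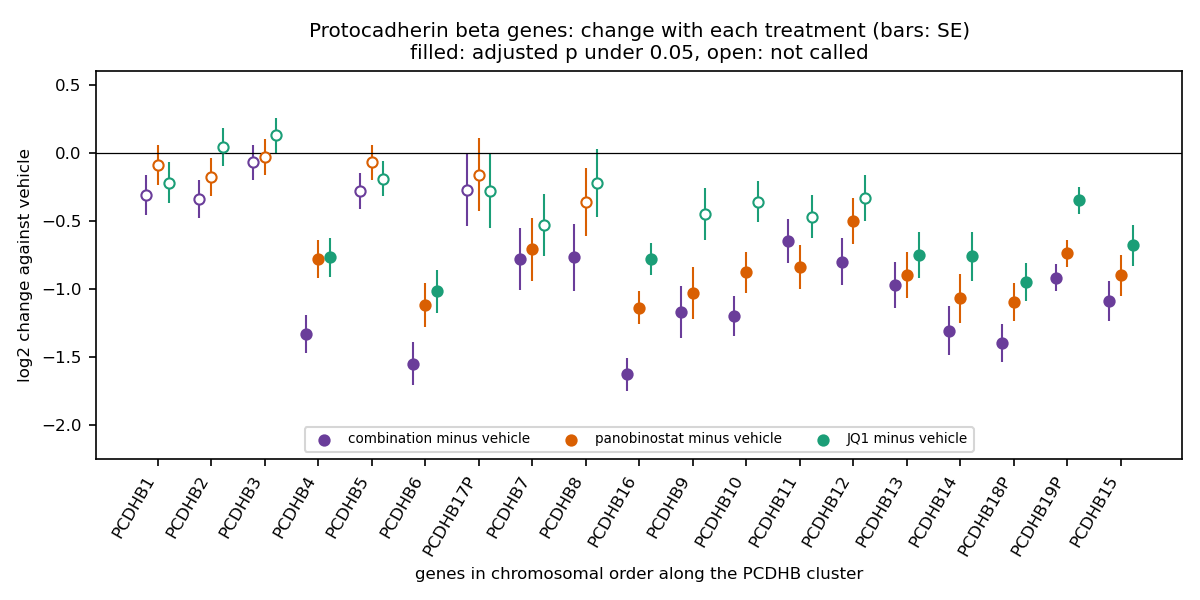
The y axis is the log2 change against vehicle, with bars for the SE, and the x axis lists the beta protocadherins in chromosomal order (combination, panobinostat and JQ1 from left to right for each gene). Filled points were called, and called and uncalled genes are mixed at the PCDHB1 end while PCDHB7 to PCDHB15 were each called at least with the combination.

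The order of the arrays within a group was partly shared across the beta genes. Among the 14 genes called with the combination, JQ1 replicate 2 was the highest JQ1 array for 13, vehicle replicate 1 the highest vehicle array for 11 and vehicle replicate 3 the lowest for 13. Combination replicate 1 was the lowest combination array for 10 and the highest for 3. The panobinostat arrays were less evenly ordered, with replicate 1 the lowest for 9 and replicate 3 for 6 (values tied at 2 decimals count for both), and replicate 2 the highest for 8. With each array left out in turn, the number of beta genes called lower was 12 to 15 with the combination, 11 to 13 with panobinostat and 6 to 11 with JQ1. A filter removing the genes below the 40th percentile of signal gave 8, 8 and 6, since dim beta genes then go untested.

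The protocadherins outside the clusters lie singly in the genome and act in cell sorting and axon growth. Of 13, 5 rose and 1 fell with the combination, 8 rose and none fell with panobinostat, and 4 rose and 1 fell with JQ1. With the combination 18.2% of all genes rose and 19.5% fell, with panobinostat 14.5% and 14.8%, and with JQ1 8.18% and 9.47%. The median log2 change was 0.32 with the combination, 0.38 with panobinostat and 0.05 with JQ1. The 8 rises with panobinostat became 5 without vehicle replicate 1 or 2 and 5 without dim genes. The 4 rises with JQ1 became 2 without vehicle replicate 1 or JQ1 replicate 2, 1 without vehicle replicate 2 or JQ1 replicate 3, and 2 when only JQ1 and vehicle arrays were fitted.

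PCDH17 (transcript cluster 16775136), which acts in axon growth in mice, read 8.27, 8.41 and 8.55 with the combination, 8.23, 8.37 and 8.51 with panobinostat, 8.05, 8.11 and 8.07 with JQ1, and 7.72, 7.36 and 7.29 with vehicle. All treated arrays lay above the vehicle arrays, and the combination and panobinostat arrays overlapped throughout. The log2 change was 0.96 ± 0.12 with the combination, 0.91 ± 0.12 with panobinostat and 0.62 ± 0.12 with JQ1 (limma adjusted p = 4.56e-05, 0.000144 and 0.0034). A dimmer cluster named for PCDH17 had values of -0.01, -0.04 and 0.13, and the mean of both PCDH17 clusters gave 0.47, 0.43 and 0.38, all called.

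PCDH8, also called arcadlin for its induction by neuronal activity in rat, was higher in both groups given panobinostat. It read 7.18, 7.24 and 7.18 with the combination, 7.27, 7.42 and 7.45 with panobinostat, 6.71, 6.40 and 6.44 with JQ1, and 6.42, 6.58 and 6.59 with vehicle. JQ1 and vehicle arrays overlapped, and both panobinostat-containing groups lay above them. Its log2 change was 0.67 ± 0.09 with the combination (limma adjusted p = 0.000107), 0.84 ± 0.09 with panobinostat (4.47e-05) and -0.01 ± 0.09 with JQ1 (0.946).

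PCDH9 read 8.91, 8.81 and 8.86 with the combination, 8.90, 9.01 and 8.91 with panobinostat, 8.39, 8.41 and 8.61 with JQ1, and 8.17, 7.92 and 8.24 with vehicle. It changed by 0.75 ± 0.09, 0.83 ± 0.09 and 0.36 ± 0.09 with the combination, panobinostat and JQ1, with no overlap against vehicle. The JQ1 call was lost with the mean of its clusters (log2 change 0.13), with only the JQ1 and vehicle arrays, or without vehicle replicate 2 or JQ1 replicate 3 (adjusted p 0.00688 to 0.436 over all alternatives). A much dimmer second cluster of PCDH9 had values of -0.15, 0.24 and -0.09, and the mean of both gave 0.30 with the combination and 0.54 with panobinostat, both called.

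PCDH10, a gene often silenced by promoter methylation in tumours, varied more between arrays, at 7.85, 7.88 and 8.39 with the combination, 7.98, 7.96 and 8.61 with panobinostat, 7.99, 7.53 and 7.98 with JQ1, and 7.31, 6.96 and 7.44 with vehicle. It rose by 0.80 ± 0.21 with the combination and 0.95 ± 0.21 with panobinostat (limma adjusted p = 0.00965 and 0.00521), and its value of 0.60 ± 0.21 with JQ1 was not called (0.0767). PCDH19, the X-linked gene of a girls' epilepsy syndrome, changed by 0.76 ± 0.12, 0.40 ± 0.12 and 0.47 ± 0.12 with the combination, panobinostat and JQ1. Its panobinostat call was lost under 6 of 17 alternatives (adjusted p 0.00497 to 0.108), among them without vehicle replicate 1 or 2 or panobinostat replicate 1 or 2. Its JQ1 call was lost without vehicle replicate 1 or 2 or JQ1 replicate 2 or 3 (0.00802 to 0.0821).

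PCDH7 and PCDH20 were near the threshold. PCDH7 changed by 0.33 ± 0.12 with the combination (not called), 0.38 ± 0.12 with panobinostat and 0.41 ± 0.12 with JQ1. Its panobinostat call was lost under 7 of 17 alternatives (0.0135 to 0.124), among them without vehicle replicate 1 or 2 or panobinostat replicate 2 or 3. Its JQ1 call was lost under 11 of 17 (0.0197 to 0.147), among them without vehicle replicate 1 or 2, any JQ1 replicate, panobinostat replicate 3 or combination replicate 1. PCDH20 rose by 0.26 ± 0.09 with panobinostat, a call lost under 8 of 17 alternatives (0.0201 to 0.119), among them without any 1 vehicle replicate and without panobinostat replicate 1 or 3. PCDH1, PCDH11X, PCDH12 and PCDH15 were called with no treatment against vehicle, as was PCDH11Y, whose values are not given.

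PCDH18 (transcript cluster 16979875) was the one member called in both directions. It read 8.87, 8.85 and 8.95 with the combination, 9.93, 9.90 and 9.91 with panobinostat, 9.20, 9.20 and 9.37 with JQ1, and 9.39, 9.51 and 9.64 with vehicle. The panobinostat arrays lay above, and the JQ1 and combination arrays below, all vehicle arrays. The log2 change was -0.62 ± 0.08 with the combination (limma adjusted p = 5.25e-05), 0.40 ± 0.08 with panobinostat (0.00213) and -0.26 ± 0.08 with JQ1 (0.0418). The JQ1 call was lost under 13 of 18 alternatives (0.017 to 0.159), including without vehicle replicate 2 or 3, JQ1 replicate 1 or 2, or any 1 panobinostat or combination array.

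Nectins, CADMs and their relatives are Ig-domain proteins of junctions and synapses, linked inside the cell to afadin or to band 4.1 and PDZ proteins. Of 10 members, 4 rose and 1 fell with the combination, 3 rose with panobinostat and 4 rose with JQ1. The shares of all genes that rose and fell were 18.2% and 19.5%, 14.5% and 14.8%, and 8.18% and 9.47% in the same order. CADM3 (transcript cluster 16672412), a neural CADM that binds CADM1 and nectins, had the largest rise of all members with the combination. It read 9.21, 9.27 and 9.25 with the combination, 8.64, 8.71 and 8.44 with panobinostat, 8.33, 8.64 and 8.26 with JQ1, and 7.87, 7.85 and 7.78 with vehicle. The combination arrays lay above all others, and the vehicle arrays below all others. The log2 change was 1.41 ± 0.10 with the combination (2.66-fold higher, limma adjusted p = 7.07e-07), 0.76 ± 0.10 with panobinostat (0.000172) and 0.58 ± 0.10 with JQ1 (0.00219). A dimmer cluster named for CADM3 had values of 0.27, 0.12 and 0.13. The mean of both CADM3 clusters gave 0.84 with the combination and 0.44 with panobinostat, both called, and with it the JQ1 call was lost (log2 change 0.35, adjusted p 0.0543, range over all alternatives 0.00067 to 0.0543).

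CADM4, which joins glia to axons, read 7.84, 8.24 and 8.20 with the combination, 7.81, 7.93 and 7.84 with panobinostat, 7.88, 7.95 and 7.59 with JQ1, and 7.53, 7.38 and 7.14 with vehicle. Its changes were 0.75 ± 0.13, 0.51 ± 0.13 and 0.46 ± 0.13. The panobinostat call was lost without vehicle replicate 3 (0.00373 to 0.0524 over all alternatives), and the JQ1 call under 6 of 18 alternatives (0.0124 to 0.129), among them without vehicle replicate 2 or 3 or JQ1 replicate 1 or 2. CADM1, a tumour suppressor in several cancers, had values of 0.25 ± 0.15, 0.26 ± 0.15 and 0.30 ± 0.15 that were not called. It was called with all 3 treatments without vehicle replicate 1 (log2 changes 0.44, 0.46 and 0.50, adjusted p 0.0112, 0.0134 and 0.0141). Its dimmer cluster changed by 0.47 ± 0.10 with the combination and 0.49 ± 0.10 with panobinostat (limma adjusted p over all clusters 0.0068 and 0.008), against 0.11 ± 0.10 with JQ1 (0.647).

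NECTIN2, which anchors adherens junctions and is a ligand of immune receptors, read 7.09, 7.00 and 7.11 with the combination, 6.96, 7.10 and 7.02 with panobinostat, 6.60, 6.67 and 6.69 with JQ1, and 6.59, 6.52 and 6.56 with vehicle. The groups with panobinostat lay above those without it. Its change was 0.51 ± 0.06 with the combination and 0.47 ± 0.06 with panobinostat (limma adjusted p = 5.39e-05 and 0.000212), and 0.10 ± 0.06 with JQ1 (0.356). NECTIN3 changed by 0.27 ± 0.08, 0.11 ± 0.08 and 0.32 ± 0.08. Its combination call was lost with median centring and without vehicle replicate 2 or combination replicate 1 (0.00617 to 0.0629), and its JQ1 call without JQ1 replicate 2 (0.00478 to 0.0637). ALCAM, a ligand for CD6 and for itself, read 9.84, 9.74 and 9.80 with the combination, 10.11, 10.24 and 10.10 with panobinostat, 10.05, 9.99 and 10.10 with JQ1, and 10.24, 10.17 and 10.27 with vehicle. It fell by 0.43 ± 0.07 on the log2 scale with the combination (limma adjusted p = 0.00025), while values of -0.08 ± 0.07 and -0.18 ± 0.07 with panobinostat and JQ1 were not called, the second being called (adjusted p 0.0386) when dim genes were left out. NECTIN4, DSCAM and DSCAML1 were called with no treatment.

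**Figure D3:**
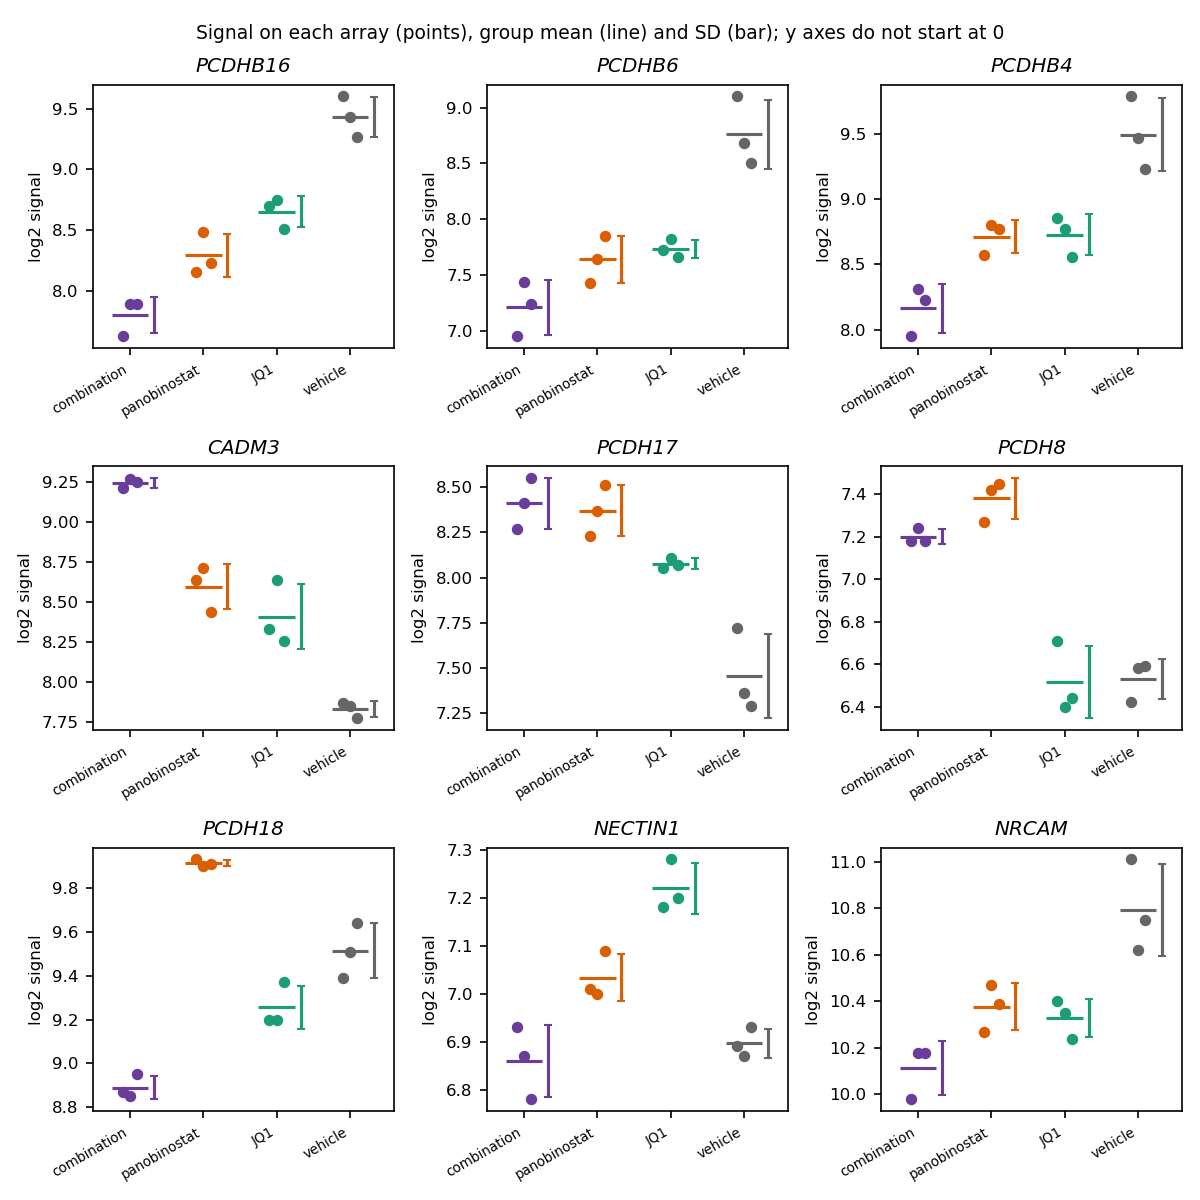
The y axis of each panel is log2 signal (not starting at 0) and the x axis the 4 groups, with a point for each of 3 arrays, a line for the mean and a bar for the SD. In PCDH18 the combination arrays are lowest and the panobinostat arrays highest, and in CADM3 the combination arrays, 9.21 to 9.27, stand above all others.

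L1-family proteins and NCAMs carry axons along one another and bind ankyrin or spectrin inside the cell. Of 6 members, 1 rose and 1 fell with the combination, 2 rose and 1 fell with panobinostat, and 1 fell with JQ1. Over all genes, 18.2% rose and 19.5% fell with the combination, 14.5% and 14.8% with panobinostat, and 8.18% and 9.47% with JQ1. NRCAM (transcript cluster 17061759), which helps assemble nodes of Ranvier, read 9.98, 10.18 and 10.18 with the combination, 10.27, 10.47 and 10.39 with panobinostat, 10.40, 10.35 and 10.24 with JQ1, and 11.01, 10.62 and 10.75 with vehicle. No treated array reached the vehicle range. It changed by -0.68 ± 0.10, -0.42 ± 0.10 and -0.46 ± 0.10 (limma adjusted p = 0.000236, 0.00943 and 0.0087).

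NCAM1, the neural cell adhesion molecule used as a surface marker of neuroblastoma, rose slightly. It read 10.35, 10.48 and 10.43 with the combination, 10.29, 10.43 and 10.47 with panobinostat, 10.26, 10.20 and 10.22 with JQ1, and 10.20, 10.02 and 10.05 with vehicle. Its log2 change was 0.33 ± 0.07 with the combination and 0.31 ± 0.07 with panobinostat (limma adjusted p = 0.00394 and 0.0086). The panobinostat call was lost with median centring (0.25, adjusted p 0.0891, range 0.000881 to 0.0891), and the JQ1 value of 0.14 ± 0.07 was not called. NFASC, neurofascin, read 7.17, 7.55 and 7.46 with the combination, 7.90, 7.90 and 7.76 with panobinostat, 7.29, 7.31 and 7.23 with JQ1, and 7.45, 7.19 and 7.13 with vehicle. It was called higher with panobinostat (0.60 ± 0.11, limma adjusted p = 0.00143), and its combination value of 0.14 ± 0.11 was not called. L1CAM, an antibody target in neuroblastoma, averaged 9.50 ± 0.16 with the combination, 9.72 ± 0.11 with panobinostat, 9.52 ± 0.11 with JQ1 and 9.48 ± 0.10 with vehicle (SD, n = 3). Neither it nor CHL1 or NCAM2 was called, though the panobinostat value of L1CAM, 0.24, was called with quantile normalization (0.29, adjusted p 0.0421) and with the replicate number as a block (0.24, 0.0361).

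Contactins are GPI-anchored Ig proteins, and contactin-associated proteins are the neurexin-like partners that join them at nodes. Of 12 members, 1 rose and 2 fell with the combination, 1 fell with panobinostat and 3 fell with JQ1. Those counts stand beside 18.2% of all genes higher and 19.5% lower with the combination. The shares were 14.5% and 14.8% with panobinostat, and 8.18% and 9.47% with JQ1. CNTNAP1, the axonal partner of CNTN1 at paranodes, read 7.60, 7.67 and 7.71 with the combination, 7.64, 7.73 and 7.86 with panobinostat, 8.12, 8.10 and 7.84 with JQ1, and 8.53, 8.39 and 8.38 with vehicle. All treated arrays lay below vehicle, and the changes were -0.77 ± 0.09, -0.69 ± 0.09 and -0.41 ± 0.09 (limma adjusted p = 3.24e-05, 0.000172 and 0.00831). CNTN4 read 6.96, 7.16 and 7.09 with the combination, 7.54, 7.61 and 7.50 with panobinostat, 7.33, 7.24 and 7.07 with JQ1, and 7.76, 7.88 and 7.69 with vehicle. It fell with the combination (-0.71 ± 0.09, 4.4e-05) and JQ1 (-0.56 ± 0.09, 0.00098), and its panobinostat value of -0.23 ± 0.09 was not called (0.0696).

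CNTN2, also known as TAG-1 or axonin, is an early axonal contactin. It read 7.08, 7.04 and 7.12 with the combination, 7.33, 7.10 and 7.03 with panobinostat, 6.94, 7.09 and 6.80 with JQ1, and 7.17, 7.41 and 7.27 with vehicle. It was called lower with JQ1 (-0.34 ± 0.10, limma adjusted p = 0.0378), and values of -0.20 ± 0.10 with the combination and -0.13 ± 0.10 with panobinostat were not called. The JQ1 call was lost under 8 of 18 alternatives (0.0165 to 0.145), among them with the replicate number as a block and without vehicle replicate 2 or 3, JQ1 replicate 1 or 3, or combination replicate 2 or 3. CNTNAP2, tied to language and autism in people, was called higher with the combination (0.32 ± 0.10, 0.0298) although its arrays overlapped the vehicle arrays, at 6.02, 5.82 and 5.99 with the combination and 5.54, 5.85 and 5.48 with vehicle. That call was lost under 6 of 17 alternatives (0.00359 to 0.12), among them without vehicle replicate 1 or 3 or combination replicate 1 or 3. Without vehicle replicate 2, CNTNAP2 was also called higher with panobinostat (0.28, adjusted p 0.0462) and JQ1 (0.37, 0.0232). CNTN1, the brightest member of the family, averaged 11.48 ± 0.10 with the combination and 11.65 ± 0.04 with vehicle (SD, n = 3) and was not called. CNTN3, CNTN5, CNTN6, CNTNAP3, CNTNAP3B, CNTNAP4 and CNTNAP5 were called with no treatment, and CNTNAP3 and CNTNAP3B are near-identical copies whose probes may not separate them.

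Giant cadherins act in planar polarity and growth control through the Hippo pathway, DCHS1 and FAT4 as a ligand and receptor pair. DCHS1 read 8.02, 8.29 and 8.06 with the combination, 8.40, 8.40 and 8.20 with panobinostat, 8.62, 8.66 and 8.51 with JQ1, and 9.16, 9.12 and 8.86 with vehicle. Every treated array was below every vehicle array. Its changes were -0.92 ± 0.10, -0.71 ± 0.10 and -0.45 ± 0.10 (limma adjusted p = 2.1e-05, 0.0003 and 0.01), and the JQ1 call was lost with the mean of its clusters (-0.21, adjusted p 0.103, range 0.00373 to 0.103). That mean gave -0.51 with the combination and -0.36 with panobinostat, both called, and the dimmer clusters of DCHS1 changed by -0.32 and -0.29 with the combination, -0.13 and -0.24 with panobinostat and -0.09 and -0.10 with JQ1. Its partner FAT4 read 7.66, 7.55 and 7.81 with the combination, 7.79, 7.90 and 8.26 with panobinostat, 7.58, 7.55 and 7.79 with JQ1, and 7.59, 7.00 and 7.51 with vehicle. FAT4 was higher with panobinostat (0.62 ± 0.16, 0.0119) and not called with the combination (0.31 ± 0.16) or JQ1 (0.27 ± 0.16). FAT3 fell with the combination (-0.43 ± 0.11, 0.00853) and was called with neither compound by itself, and FAT1 and FAT2 were not called.

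Neurexins and neuroligins pair across synapses. Of 5 members, 1 rose with the combination, beside 18.2% of all genes. It was NLGN2, the neuroligin of inhibitory synapses (0.29 ± 0.08, limma adjusted p = 0.0118). The call was lost with median centring and without vehicle replicate 3 (0.00218 to 0.0676). NLGN1, NLGN3, NRXN2 and NRXN3 were not called with any treatment, and over the family the values ran from -0.03 to 0.29 with the combination, 0.07 to 0.26 with panobinostat and -0.15 to 0.08 with JQ1. Without panobinostat replicate 2, NLGN1 was called higher with panobinostat (0.43, adjusted p 0.037, against 0.26 and 0.247 with all arrays). CDH23 and CDH26 were not called either.

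The combination was then compared with each compound alone. Against JQ1, 5 members were higher and 14 lower, so 19 (26.4%) were called, close to the 25.6% of all genes called. Against panobinostat, 1 was higher and 7 lower, so 8 (11.1%) were called, against 14.7% of all genes. The directional backgrounds were 11.7% higher and 13.9% lower against JQ1, and 6.13% higher and 8.55% lower against panobinostat. The second count became 4 without panobinostat replicate 2 or without combination replicate 1.

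CADM3 was higher with the combination than with either compound, by 0.84 ± 0.10 against JQ1 and 0.65 ± 0.10 against panobinostat (limma adjusted p = 0.000121 and 0.00151). PCDHB16 was lower than with either, at -0.85 ± 0.12 and -0.49 ± 0.12 (0.000313 and 0.0167), and the second call was lost without panobinostat replicate 2 or combination replicate 1 (0.00412 to 0.0662). PCDHB4 was lower than with either, at -0.57 ± 0.14 and -0.55 ± 0.14 (0.0125 and 0.0243). Its call against JQ1 was lost without JQ1 replicate 1 or combination replicate 1 (0.0042 to 0.0543), and its call against panobinostat with median centring and without panobinostat replicate 2 or 3 or combination replicate 1 (0.00553 to 0.0923). ALCAM was lower than with either, at -0.25 ± 0.07 and -0.35 ± 0.07 (0.0152 and 0.00451), and the first call was lost without JQ1 replicate 3 or combination replicate 2 (0.00496 to 0.0611). PCDH18 was lower than with either as well, at -0.37 ± 0.08 and -1.03 ± 0.08 (0.00472 and 3.27e-05).

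Of the 19 beta protocadherins, 2 (PCDHB4 and PCDHB16) were lower with the combination than with panobinostat, beside 8.55% of all genes. Against JQ1, 8 of the 19 were lower, beside 13.9% of all genes. PCDHB10 (-0.84 ± 0.15, limma adjusted p = 0.00129) and PCDHB19P (-0.57 ± 0.10, 0.00166) kept the call under every alternative tried. PCDHB9 (-0.72 ± 0.19, 0.015) lost it without combination replicate 1 (0.00668 to 0.0516). PCDHB6 (-0.53 ± 0.16), PCDHB14 (-0.55 ± 0.18) and PCDHB18P (-0.45 ± 0.14) were close to the threshold, with adjusted p of 0.0328, 0.0412 and 0.0309, and all 3 lost the call with the replicate number as a block (0.0614, 0.062 and 0.0514) and without JQ1 replicate 1 or 2 or combination replicate 1. PCDHB6 also lost it without JQ1 replicate 3 or combination replicate 3, PCDHB14 without vehicle replicate 2 or combination replicate 2 or 3, and PCDHB18P without combination replicate 2, with highest adjusted p of 0.128, 0.136 and 0.113.

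Also against JQ1, PCDH8 was higher by 0.68 ± 0.09, NECTIN2 by 0.41 ± 0.06 and PCDH9 by 0.39 ± 0.09 (limma adjusted p = 0.00024, 0.000658 and 0.00835), the call of PCDH9 being lost with the mean of its clusters (0.254). DCHS1 (-0.47 ± 0.10, 0.00515), NECTIN1 (-0.36 ± 0.06, 0.00142), CNTNAP1 (-0.36 ± 0.09, 0.0123) and FAT3 (-0.37 ± 0.11, 0.0296) were lower. The call of CNTNAP1 was lost without JQ1 replicate 1 or 2 (0.00425 to 0.0551), and that of FAT3 without JQ1 replicate 2 or 3 or any 1 combination array (0.00859 to 0.117). NLGN2 was higher by 0.25 ± 0.08 (0.0339), a call lost under 8 of 18 alternatives (0.011 to 0.157), among them without JQ1 replicate 2 or 3 or any 1 combination array.

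Against panobinostat, CNTN4 (-0.48 ± 0.09, limma adjusted p = 0.00364), NFASC (-0.46 ± 0.11, 0.0158) and PCDH1 (-0.37 ± 0.11, 0.0479) were also lower. The call of NFASC was lost without panobinostat replicate 1 or 2 or combination replicate 1 (0.00599 to 0.0534). That of PCDH1 was lost under 12 of 18 alternatives (0.0158 to 0.152), including without any 1 JQ1 or panobinostat array, vehicle replicate 2, or combination replicate 1 or 3.

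**Figure D4:**
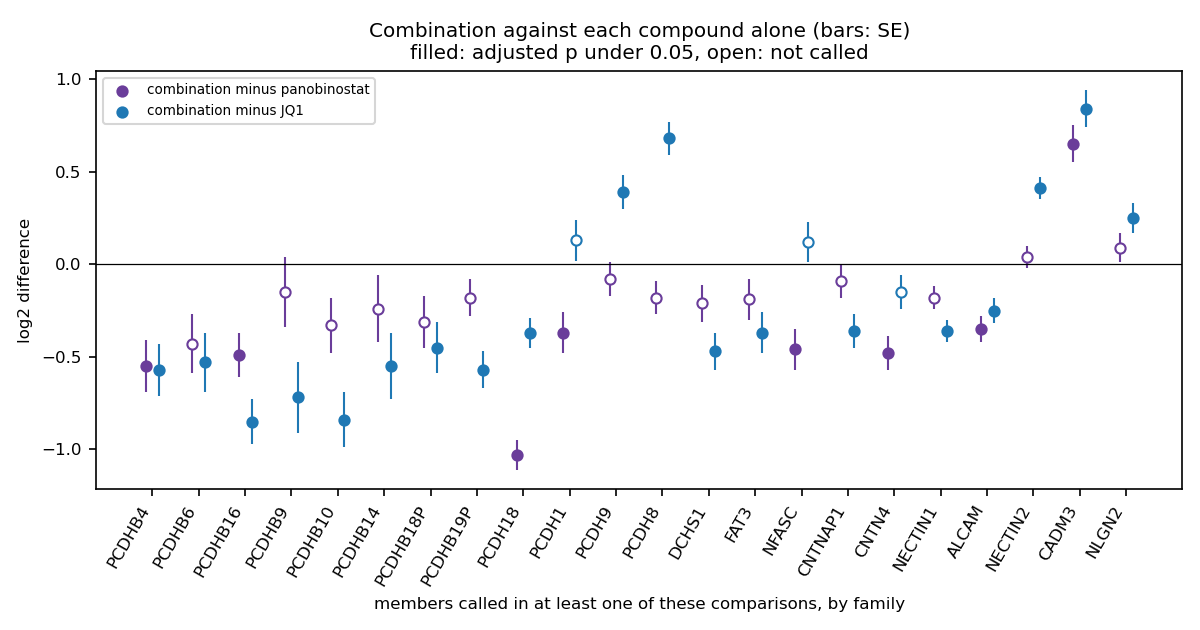
The y axis is the log2 difference of the combination from panobinostat (left point of each pair) and from JQ1 (right point), with bars for the SE, and the x axis lists the 22 members called in at least one of them. Filled points were called. CADM3 lies above 0 and was called in both. The beta protocadherins shown lie below 0 in both, but only PCDHB4 and PCDHB16 of them were called against panobinostat.

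The interaction asks whether the change with both compounds differs from the sum of the changes with each, on the log2 scale. It was called for 2 members (2.8%), against 0.759% of all genes, and both values were below 0 (0.309% of all genes were called above 0 and 0.45% below). PCDH18 had an interaction of -0.77 ± 0.11 (limma adjusted p = 0.0148), its panobinostat arrays lying above and its combination arrays below vehicle, and the call was kept under every alternative tried. NECTIN1 (transcript cluster 16745380), a nectin and herpesvirus entry receptor, read 6.93, 6.87 and 6.78 with the combination, 7.01, 7.00 and 7.09 with panobinostat, 7.18, 7.28 and 7.20 with JQ1, and 6.89, 6.87 and 6.93 with vehicle. It rose with JQ1 (0.32 ± 0.06, 0.00459), and its combination and panobinostat values of -0.04 ± 0.06 and 0.14 ± 0.06 were not called. Its interaction of -0.50 ± 0.09 (0.0326) was lost under 13 of 17 alternatives (0.00818 to 0.107), including with median centring, with the replicate number as a block and without any 1 array other than combination replicate 1. No beta protocadherin had a called interaction, with values from -0.2 to 0.67 and a median of 0.22.

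Genes that act with these proteins were described from lists fixed with earlier results of these data known. Of 11 regulators of the protocadherin clusters, 10 were measured, and 5 fell with the combination, 6 with panobinostat and 2 with JQ1, with none rising. Of all genes 19.5%, 14.8% and 9.47% fell, in the same order. CTCF, which binds protocadherin promoters, changed by -0.88 ± 0.07 with the combination, -1.00 ± 0.07 with panobinostat and 0.00 ± 0.07 with JQ1. The cohesin subunit STAG2 changed by -1.51 ± 0.07, -0.89 ± 0.07 and -0.44 ± 0.07, and STAG1 by -1.27 ± 0.10, -1.12 ± 0.10 and -0.49 ± 0.10. RAD21, the cohesin kleisin, changed by -0.47 ± 0.08, -0.39 ± 0.08 and -0.12 ± 0.08, the last not called. NIPBL was called lower with the combination (-0.35) and panobinostat (-0.24). SMC1A (-0.12), SMC3 (-0.10), WAPL (0.02), SMCHD1 (-0.09) and ZNF143 (0.05) were not called with the combination. SMC1A was called lower with panobinostat (-0.31). The part of these genes in the beta cluster's change was not tested.

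Of 17 catenins and junction partners 6 were measured, and 3 rose and 1 fell with the combination, 2 rose and 1 fell with panobinostat, and 3 rose and 1 fell with JQ1. In the same order, 18.2%, 14.5% and 8.18% of all genes rose, and 19.5%, 14.8% and 9.47% fell. VCL, vinculin, rose by 1.31 ± 0.07, 0.96 ± 0.07 and 0.70 ± 0.07, and JUP, plakoglobin, by 0.96 ± 0.07, 0.53 ± 0.07 and 0.68 ± 0.07. TJP1, the ZO-1 scaffold, was called higher with the combination (0.57 ± 0.10) and JQ1 (0.37 ± 0.10), and RAPGEF1, an activator of RAP1, was lower with all 3 (-0.52, -0.33 and -0.28). The JQ1 calls of TJP1 and RAPGEF1 were lost under 6 and 7 of 18 alternatives (0.00994 to 0.107 and 0.00614 to 0.106), for TJP1 without vehicle replicate 2 or 3 or JQ1 replicate 1 or 2 and for RAPGEF1 without vehicle replicate 1 or 3 or JQ1 replicate 2 or 3.

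All 9 EMT transcription factors, known as repressors of epithelial cadherins, were measured. 6 fell with the combination, 5 fell and 1 rose with panobinostat, and 3 fell with JQ1. Beside these, 19.5%, 14.8% and 9.47% of all genes fell, and 14.5% rose with panobinostat. ZEB2 changed by -1.22 ± 0.11, -0.50 ± 0.11 and -0.70 ± 0.11, and SNAI2 by -0.97 ± 0.07, -0.34 ± 0.07 and -0.31 ± 0.07. TWIST1 changed by -0.90 ± 0.16 and -0.88 ± 0.16 with the combination and panobinostat, and TCF4 by -0.89 ± 0.08 and -0.52 ± 0.08. Neither was called with JQ1. SNAI1 was the gene that rose with panobinostat (0.41 ± 0.09). It fell with JQ1 (-0.67 ± 0.09) and was not called with the combination (0.13 ± 0.09).

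Of 17 ankyrin, band 4.1 and sheddase genes 8 were measured, and 3 rose and 2 fell with the combination, 2 rose and 1 fell with panobinostat, and 1 rose and 2 fell with JQ1. The shares of all genes were 18.2%, 14.5% and 8.18% higher, and 19.5%, 14.8% and 9.47% lower, in the same order. BACE1, a protease that sheds CHL1 and other adhesion proteins, rose by 0.79 ± 0.08, 0.57 ± 0.08 and 0.55 ± 0.08. The band 4.1 gene EPB41L3, a CADM partner, changed by -0.70 ± 0.09, -0.46 ± 0.09 and -0.42 ± 0.09, and EPB41L2 by 0.85 ± 0.14, 0.50 ± 0.14 and 0.20 ± 0.14, the last not called. EPB41L1 was called lower with the combination (-0.61 ± 0.12) and JQ1 (-0.42 ± 0.12). The panobinostat call of EPB41L2 was lost without vehicle replicate 3 or panobinostat replicate 3 (0.00723 to 0.0683), and the JQ1 call of EPB41L1 without vehicle replicate 2 or JQ1 replicate 1 or 3 (0.00778 to 0.106).

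Of 23 partners of neurexins and neuroligins 18 were measured, and 4 rose and 3 fell with the combination, 3 rose and 2 fell with panobinostat, and 3 rose and 2 fell with JQ1. Over all genes 18.2%, 14.5% and 8.18% rose, and 19.5%, 14.8% and 9.47% fell, in the same order. LRRTM1, a postsynaptic ligand of neurexins, averaged 8.2 with the combination, 9.51 with panobinostat, 9.7 with JQ1 and 11.58 with vehicle, and changed by -3.38 ± 0.11, -2.07 ± 0.11 and -1.88 ± 0.11 (limma adjusted p = 4.13e-09, 3.73e-07 and 1.49e-06). CBLN1, a secreted bridge between neurexins and glutamate receptors, rose by 0.66 ± 0.07, 0.42 ± 0.07 and 0.52 ± 0.07. CLSTN3, a calsyntenin, rose by 0.96 with the combination and 1.0 with panobinostat. SHANK1, a postsynaptic scaffold, changed by -0.62 with the combination and -0.40 with panobinostat, both called. Neither CLSTN3 nor SHANK1 was called with JQ1 (-0.13 and -0.29).

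Markers of the neuroblast state moved in the same samples. All 9 measured were lower with the combination, from -0.23 (STMN2) to -1.23 (HAND2), while 6 fell with panobinostat, and 1 rose and 2 fell with JQ1. Of all genes 19.5% fell with the combination, 14.8% with panobinostat and 9.47% with JQ1, and 8.18% rose with JQ1. Of 5 mesenchymal markers 2 were lower with the combination, LUM at -0.41 and DCN at -0.52, and 1 was lower with JQ1. Of 3 Schwann markers, ERBB3 was higher with the combination by 0.34. Of 2 lymphoid and myeloid markers, CD68 was higher by 0.33 (and by 0.26 with panobinostat). Beside these, 18.2% of all genes rose with the combination and 14.5% with panobinostat. Of 4 epithelial markers 0 were called. The part of all these markers in the adhesion gene values was not tested.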

How the data were processed

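The study measured RNA of SK-N-BE(2) cells on 12 Affymetrix Human Gene 2.0 ST arrays. The deposited table holds 1 value per array and transcript cluster, made by the authors and taken here as log2 signal. MAS5 and affy are named, with no version or role, per the submitters' processing notes. The sources used here do not state background correction, summarisation, normalization, genome build or log base. The values were used without further scaling.

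GEO's platform annotation named 16098 transcript clusters with 1 symbol each, giving 14884 genes, and left 37519 unnamed. The brightest cluster over all arrays stood for each gene. limma 3.58.1 in R 4.3.3 (lmFit and eBayes, 8 residual and 3.457 prior degrees of freedom) fitted 1 coefficient per group over all 12 arrays. Tests were two-sided, and Benjamini-Hochberg adjustment covered all 14884 genes. With 3 arrays against 3, an exact permutation test cannot go below p = 0.1, so only the fit across all genes was used.

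Alternatives were median centring, quantile normalization, a filter on genes below the 40th percentile of signal (8930 left), the mean of a gene's clusters, the replicate number as a block, fits of the compared groups alone, and leaving out each array. The members and gene lists were chosen with earlier results of these data known. The rule for named genes took, per direction, the 10 members with the largest called change against vehicle, 5 for the combination against each compound, every member with a called interaction, 13 chosen symbols (9 measured), and up to 4 called genes per partner list. Other called members and partner genes, and uncalled ones, were named after their values were seen. Promoter sequence came from RefSeq (GRCh38.p14).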

Additional observations from a re-analysis of the deposited data

Results flagged for a closer look

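For PCDH18 the change with both compounds differed from the sum of the single changes, by an interaction of -0.77 on the log2 scale (limma adjusted p = 0.0148). The same test gave -0.50 for NECTIN1 (adjusted p = 0.0326, and 0.00818 to 0.107 over the alternatives).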

How the results depend on the processing

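Of 165 calls of members and of partner genes taken by the naming rule, 123 were kept under every alternative. The other 42 were lost under at least 1, 38 of these without at least 1 array, and 0 reversed. Median centring lost 16, quantile normalization 5, the mean of clusters 4, the replicate block 13, fits of the compared groups alone 14 of 163, and the filter on dim genes 0 of 145. Centring and quantile normalization moved the all-gene median by at most 0.053 in size (-0.053 for panobinostat). Leaving out 1 array gave 30 to 35 called members with the combination, 26 to 30 with panobinostat, 16 to 23 with JQ1, 13 to 21 for the combination against JQ1 and 4 to 8 against panobinostat (4 without panobinostat replicate 2 or combination replicate 1), and 1 to 2 for the interaction. The interaction count was 1 with median centring and 1 with the replicate block. Beta protocadherins called lower numbered 12 to 15, 11 to 13 and 6 to 11 with the combination, panobinostat and JQ1, and 8 with the combination and 8 with panobinostat without dim genes, where fewer are tested. Protocadherins outside the clusters called higher numbered 5 to 6, 5 to 9 and 1 to 4, 5 with panobinostat without dim genes and 2 with JQ1 when only the JQ1 and vehicle arrays were fitted; the cause was not tested. Only uncalled values near 0 reversed. With 1 array left out, CHL1 ran from -0.0233 to 0.194 with the combination, -0.148 to 0.072 with panobinostat and -0.173 to 0.044 with JQ1, L1CAM from -0.0728 to 0.0688 with the combination and -0.0144 to 0.106 with JQ1, and NLGN1 from -0.00929 to 0.137 with JQ1. Centring gave L1CAM -0.0154 with the combination. Replicate numbers are shared by the groups, but same-numbered arrays did not deviate together (r from -0.6935 to 0.2357 over 18 pairs, 4 above 0.1), so the block is given only as an alternative. For differently numbered arrays of different groups, r ran from -0.4148 to 0.4859. No fit used here models deviations shared between such arrays. Without detection calls, low signals such as PCDHB8's cannot be set against background.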
